A study of Homo sapiens with 24 samples.

Results

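Cal27 and Fadu are established human head and neck squamous carcinoma lines, derived from a tumour of the tongue and of the hypopharynx. This account covers their untreated libraries, 3 of Cal27 and 3 of Fadu, which are 6 of the 24 libraries of a study of a piezoelectric cold plasma device in 4 cell lines. Membership was decided by the labels alone: cell line Cal27 or Fadu, and no treatment. Both lines are labelled WT, were seeded overnight in 6-well plates and received 0 s of plasma, with RNA taken at 24 h. Cal27 was grown in DMEM and Fadu in MEM, each with 10% fetal bovine serum. Medium therefore follows the line, and differences due to line and to medium cannot be told apart. Each line is 1 culture lineage and stands for no other tumour. Whether the 3 libraries per line were grown as separate cultures is not labelled, so every p-value measures the spread between these libraries, which may be technical.

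Stratified squamous epithelium renews from basal cells that carry the transcription factor p63 and the keratins 5 and 14 and are anchored to a laminin-rich basement membrane. As cells move up they change keratins, build desmosomes and later a cornified envelope. Squamous carcinomas keep parts of this programme and combine them with programmes of wound repair, among them secreted proteases, matrix proteins, growth factors and cytokines.

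The Cal27 libraries held 27882581, 28767939 and 30129627 counts, and the Fadu libraries 33697194, 37485101 and 30721840. A count was found for 24771 to 25115 genes in Cal27 and for 28268 to 28786 genes in Fadu. Levels are given as CPM, counts relative to the scaled library total, and a log2 fold change is Cal27 over Fadu. Of 18603 genes tested with edgeR's quasi-likelihood test, 7371 (39.6%) were higher and 7632 (41.0%) lower in Cal27, 80.6% in all at an adjusted p under 0.05. Libraries of the 2 lines did not overlap for 81.9% of tested genes. Because so many genes passed, a second test asked for a difference beyond 2-fold: 2979 genes (16.0%) were higher and 3433 (18.5%) lower by it, 34.5% together. It is called the 2-fold test from here on, and the shares 16.0% and 18.5% are the background for each list count by it. For list counts given only as higher or lower, the background is 39.6% and 41.0%. The median log2 fold change over all tested genes was -0.05 and the median absolute value 0.87. Scaling matters for small differences. Of the genes called, 49.1% were higher in Cal27 here, 42.8% with library size only and 33.5% with limma on log2(TPM + 1), where the median over shared genes shifted by -0.33. Log2 fold changes smaller than that are therefore not read as a direction.

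Both lines expressed the squamous markers TP63 and KRT5, though KRT5 averaged 274 CPM in Cal27 and 3733 CPM in Fadu. Other squamous markers were low in Cal27, where SOX2 averaged 0.0967 CPM, KRT14 5.32 CPM and KRT15 4.92 CPM. TP63, the p63 gene, had 347, 329 and 374 CPM in Cal27, against 405, 408 and 422 CPM in Fadu, levels that nearly meet. CDH1, the epithelial E-cadherin, had 226, 224 and 250.5 CPM in Cal27, against 340.3, 342 and 342 CPM in Fadu. VIM, the mesenchymal filament vimentin, had 0.682, 0.367 and 0.597 CPM in Cal27, against 0.113, 0.152 and 0.123 CPM in Fadu, near 0 in every library. Of the markers of other cell types, 6 of 10 for melanocytes, 5 of 10 for thyroid follicle cells, 3 of 10 for fibroblasts, 3 of 12 for leukocytes, 3 of 10 for endothelium and 2 of 10 for muscle and neuroendocrine cells had enough counts to be tested. Their summed levels were 18.2 to 21 CPM in Cal27 and 24.1 to 26 CPM in Fadu for melanocyte markers, and 36.1 to 41.7 CPM in Cal27 and 26.8 to 31.0 CPM in Fadu for thyroid markers. The sums were 22.7 to 24.8 CPM in Cal27 and 18.7 to 19.2 CPM in Fadu for fibroblasts, and 16.3 to 16.5 CPM in Cal27 and 6.11 to 8.53 CPM in Fadu for leukocytes. For endothelium they were 3.69 to 4.44 CPM in Cal27 and 9.74 to 10.8 CPM in Fadu, and for muscle and neuroendocrine cells 1.86 to 2.84 CPM in Cal27 and 1.73 to 2.57 CPM in Fadu. SOX10, TYR, TG, DCN, COL3A1, PTPRC, CD3D, PECAM1 and KDR, chosen after their values were seen, all averaged under 1 CPM in both lines. Other members of these lists did not. At least 1 CPM was reached by 3 melanocyte markers in Cal27 and 4 in Fadu, and by 4 thyroid markers in each line. In Cal27 and Fadu it was reached by 2 and 1 fibroblast, 3 and 1 leukocyte, and 1 and 3 endothelial markers. PAX8, a thyroid and kidney lineage factor, averaged 22.7 ± 2.15 CPM in Cal27 and 5.84 ± 0.492 CPM in Fadu (± is the SD, n = 3 each). CSF1R, the macrophage colony-stimulating factor receptor, averaged 13 ± 0.535 CPM in Cal27 and 0.0938 ± 0.0186 CPM in Fadu. In RNA from whole cultures, fewer cells that express a gene and less of its RNA per cell cannot be told apart. TYRP1, a melanosome enzyme, averaged 0.961 ± 0.0803 CPM in Cal27 and 14.7 ± 1.15 CPM in Fadu.

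The strongest contrasts between the lines were genes that one line used and the other did not. Among genes of at least 10 CPM in 1 line, 28 in Cal27 had at most 3 counts over all Fadu libraries, and 68 in Fadu had at most 3 counts over all Cal27 libraries. Among the genes of at least 50 CPM named by size, the 12 highest in Cal27 were MAGEA3, MAGEA6, NLRP2, PDLIM4, LINC00973, UBQLN2, TMX3, TNFRSF10A, SLC43A3, ME2, SLC38A5 and SPARC. PDLIM4, an actin-associated PDZ and LIM protein, had 80.5, 73.7 and 72.1 CPM in Cal27, against 0 CPM in all 3 Fadu libraries, which is at least 2702-fold higher in Cal27 when Fadu is set to the 3 counts that 0 allows over its libraries. UBQLN2, a ubiquilin that carries proteins to the proteasome, had 62.3, 60.4 and 62.9 CPM in Cal27, against 0 CPM in all 3 Fadu libraries, at least 2215-fold higher. ME2, mitochondrial malic enzyme, had 62.4, 68.4 and 68.9 CPM in Cal27, against 0.0282, 0 and 0 CPM in Fadu. With 1 count in Fadu the ME2 ratio was 7159-fold, with a 95% counting interval of 1284 to 282826. No overlap of libraries was part of the rule that chose these 12 genes, so their separation is not a result. The amino acid transporter SLC38A5 averaged 228 ± 4.53 CPM in Cal27 and 0.0451 ± 0.0426 CPM in Fadu.

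The 12 lowest in Cal27 were PEG10, KRT13, KRT19, ZNF736, ZNF518B, SLC20A2, KRT4, LINC00665, ARHGAP6, SGCE, MGST1 and TFPI2. SLC20A2, a phosphate transporter, had 0, 0 and 0.105 CPM in Cal27, against 240.2, 235 and 238 CPM in Fadu, with 3 counts in all in Cal27, and Fadu over Cal27 was 6506-fold, with a 95% counting interval of 2226 to 31551. MGST1, a membrane-bound glutathione transferase, had 0.265, 0 and 0.211 CPM in Cal27, against 168, 166 and 159 CPM in Fadu (log2 fold change -9.98, SE 0.13). TFPI2, a secreted protease inhibitor of the matrix, averaged 0.099 ± 0.0926 CPM in Cal27 and 63.6 ± 1.38 CPM in Fadu. These 12 genes were chosen by the same rule of no overlap. The set holds 3 keratins and 2 neighbouring imprinted genes, PEG10 and SGCE.

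The lines differed in keratins and in several of their regulators. Of 21 squamous lineage transcription factors tested, 6 were higher and 14 lower in Cal27, 1 and 10 of them past the 2-fold test (median log2 fold change -1.0). The member higher by that test was EHF, an epithelial ETS factor, with 1475, 1452 and 1584 CPM in Cal27, against 119, 119.8 and 118 CPM in Fadu (log2 fold change 3.66, SE 0.034, adjusted p = 1.7e-43). EHF lies in a stretch of chromosome 11 where most neighbours were also higher, described below. SOX2, a stem cell and squamous lineage factor, had 0.0379, 0.147 and 0.105 CPM in Cal27, against 11.4, 12.3 and 9.59 CPM in Fadu (log2 fold change -6.78, SE 0.28, adjusted p = 6.1e-23). ELF3, another epithelial ETS factor, had 8.03, 9.83 and 9.1 CPM in Cal27, against 382, 374 and 383 CPM in Fadu (log2 fold change -5.4, SE 0.051, adjusted p = 1.8e-43). The 2 related ETS factors thus differed in opposite directions, each without overlap. ZNF750, a p63 target needed for terminal differentiation, averaged 0.294 ± 0.135 CPM in Cal27 and 6.58 ± 0.447 CPM in Fadu. KLF4, a factor of upper epidermal layers, was 0.89 log2 higher in Cal27 and did not pass the 2-fold test.

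All 3 basal keratins were lower in Cal27. KRT5 had 276, 276 and 271 CPM in Cal27, against 3829.7, 3713 and 3656 CPM in Fadu (log2 fold change -3.77, SE 0.029, adjusted p = 2.8e-46). KRT14, its partner, had 6.59, 4.91 and 4.46 CPM in Cal27, against 418, 409 and 397 CPM in Fadu (log2 fold change -6.26, SE 0.065, adjusted p = 9.7e-32). KRT15 averaged 4.92 ± 0.471 CPM in Cal27 and 202 ± 6.56 CPM in Fadu (log2 fold change -5.35). All Cal27 libraries lay below all Fadu libraries for each of the 3. Of 6 keratins of stress and repair tested, 1 passed the 2-fold test as higher and 4 as lower (median log2 fold change -2.47). KRT17 averaged 70.1 ± 6.61 CPM in Cal27 and 3455 ± 92.4 CPM in Fadu (log2 fold change -5.62). The exception was KRT6B, at 14.5 ± 1.28 CPM in Cal27 and 1.2 ± 0.273 CPM in Fadu (log2 fold change 3.61), a gene with near-identical neighbours whose reads the counting could split.

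Of 15 suprabasal keratins listed 8 could be tested, and 5 passed the 2-fold test as lower and 0 as higher. KRT13 and KRT4, the keratin pair of non-cornified mucosa such as tongue and oesophagus, separated the lines completely. KRT13 had 0 CPM in all 3 Cal27 libraries, against 121, 122 and 123 CPM in Fadu, at least 3342-fold lower in Cal27. KRT4 averaged 0.0245 ± 0.0424 CPM in Cal27 and 122 ± 3.56 CPM in Fadu. The list median was -6.02, or -4.41 with genes at 0 counts in 1 line set at their bound, and ranged from -6.45 to -0.19 over the processing settings. The -0.19 came from limma on log2(TPM + 1) without a filter, and the end nearest 0 was otherwise -1.75. KRT80, by contrast, was higher in Cal27 at 313 ± 3.33 CPM in Cal27 and 187 ± 2.11 CPM in Fadu (log2 fold change 0.74), short of the 2-fold test. Among simple epithelium keratins, 4 of 5 could be tested and all 4 were lower in Cal27, 2 past the 2-fold test (median -1.19). KRT19 had 0, 0.0734 and 0.0703 CPM in Cal27, against 981, 949.9 and 959 CPM in Fadu, a log2 fold change of -14.16 with an SE of 0.087. KRT8, the keratin of simple glandular epithelium, stayed abundant in both lines at 1084 ± 26 CPM in Cal27 and 2547 ± 48.0 CPM in Fadu (log2 fold change -1.23).

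**Figure D1:**
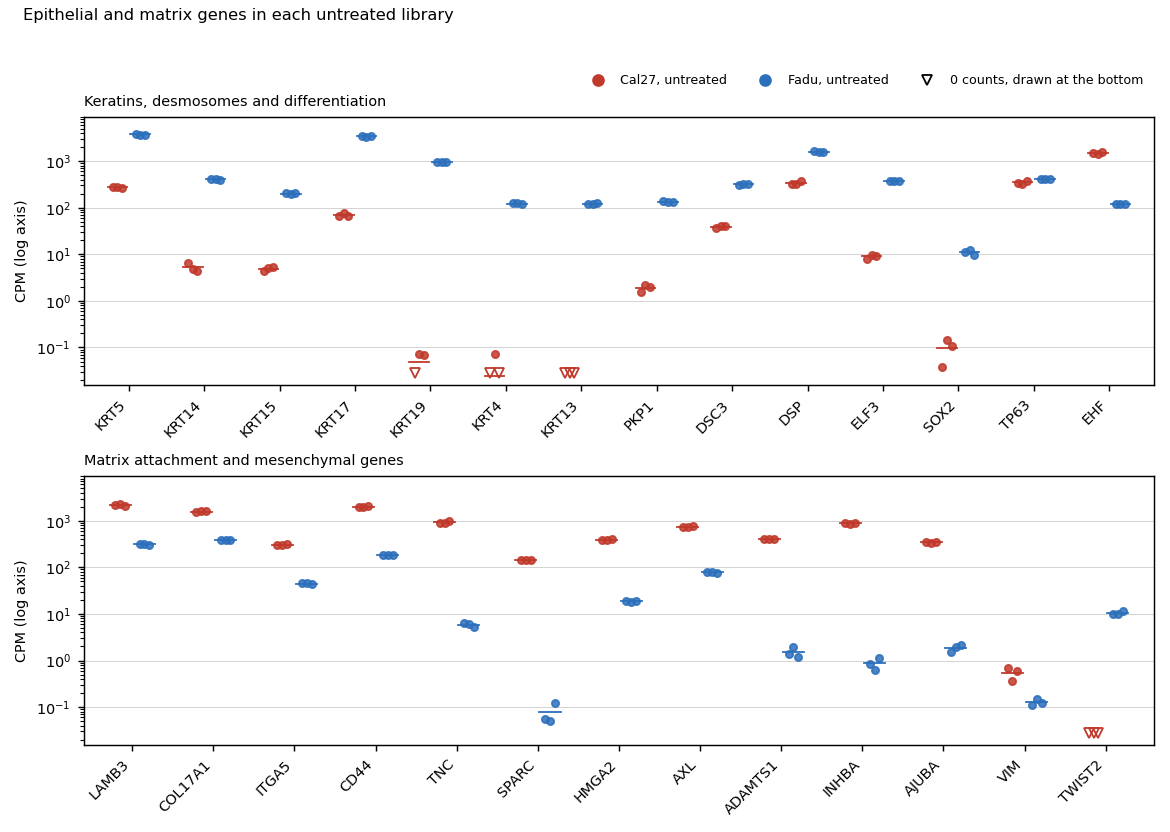
Expression of squamous regulators, keratins, junction genes, and matrix and mesenchymal genes in each untreated library. Levels are CPM on a log axis, Cal27 in red and Fadu in blue, with open triangles for 0 counts. KRT5 sits at 271 to 276 CPM in Cal27 and far above that in every Fadu library, and KRT13 is at 0 in every Cal27 library.

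Desmosomes, the junctions that keratins attach to, were lower in Cal27 almost throughout. Of 11 components tested (13 listed), 1 was higher and 10 lower, 0 and 8 of them past the 2-fold test (median -1.87). PKP1, a plakophilin that stabilises desmosomes in stratified epithelium, had 1.59, 2.16 and 2.04 CPM in Cal27, against 137, 131 and 135 CPM in Fadu (log2 fold change -6.12, SE 0.079, adjusted p = 3.2e-39). DSC3, a desmosomal cadherin, averaged 38.9 ± 2.2 CPM in Cal27 and 316 ± 1.71 CPM in Fadu (log2 fold change -3.02). The 1 called higher was PKP3, another plakophilin, at 261 ± 13.2 CPM in Cal27 and 230.3 ± 3.61 CPM in Fadu (log2 fold change 0.18), and limma on TPM put it at -0.2. Tight junction genes stood near the background of 16.0% higher and 18.5% lower by the 2-fold test. Of 19 tested members (25 listed), 2 (10.5%) passed it as higher in Cal27 and 4 (21.1%) as lower. Their median log2 fold change was -0.01, a sign not kept in every processing setting. CXADR, a junction protein, averaged 29.4 ± 1.1 CPM in Cal27 and 10.5 ± 0.31 CPM in Fadu, and TJP3, a scaffold, averaged 1.05 ± 0.166 CPM in Cal27 and 10.4 ± 0.583 CPM in Fadu. For cadherins, catenins and nectins, 4 of 15 tested members (21 listed) passed the 2-fold test as higher in Cal27 and 5 as lower (median log2 fold change -0.51, -0.89 to -0.01 over the processing settings). CDH2, N-cadherin, averaged 26.2 ± 1.53 CPM in Cal27 and 6.69 ± 1.43 CPM in Fadu (log2 fold change 1.96), and NECTIN4 averaged 1.78 ± 0.687 CPM in Cal27 and 28.2 ± 1.21 CPM in Fadu (log2 fold change -3.97).

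Late differentiation genes were lower in Cal27 as a group. For cornified envelope genes, 6 of 24 tested members (42 listed) were higher and 14 lower in Cal27, 3 and 13 of them past the 2-fold test (median log2 fold change -1.42, -2.3 to -0.44 over the processing settings). FLG, filaggrin, averaged 0.0957 ± 0.083 CPM in Cal27 and 9.75 ± 1.12 CPM in Fadu, and KLK13, a kallikrein protease, averaged 0.0253 ± 0.0437 CPM in Cal27 and 10.7 ± 0.292 CPM in Fadu. SPRR2D, a small proline-rich envelope protein from a family of similar genes, went the other way at 16.4 ± 0.68 CPM in Cal27 and 0.0357 ± 0.031 CPM in Fadu. Among S100 calcium-binding proteins, 1 of 14 tested members (19 listed) passed the 2-fold test as higher in Cal27 and 5 as lower (median log2 fold change -0.67, -1.11 to -0.5 over the processing settings). S100A6 averaged 297 ± 7.4 CPM in Cal27 and 87.9 ± 1.66 CPM in Fadu (log2 fold change 1.76) and S100A10 averaged 121 ± 6.06 CPM in Cal27 and 577 ± 7.05 CPM in Fadu (log2 fold change -2.25). Mucins and secretory genes were also mixed: 3 of 15 tested members (33 listed) passed the 2-fold test as higher in Cal27 and 7 as lower (median log2 fold change -1.26, -1.51 to -0.09 over the processing settings). LCN2, the siderophore-binding lipocalin, averaged 1106 ± 26.7 CPM in Cal27 and 196 ± 2.13 CPM in Fadu, whereas MUC4, a membrane mucin, averaged 0.209 ± 0.119 CPM in Cal27 and 49.4 ± 1.97 CPM in Fadu.

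Attachment and matrix genes ran the other way for several members. Of hemidesmosome and laminin genes, 11 of 19 tested members were higher and 8 lower in Cal27, 7 and 5 of them past the 2-fold test (median log2 fold change 0.54, 0.16 to 0.66 over the processing settings). LAMB3, a chain of laminin-332, had 2191, 2253 and 2049 CPM in Cal27, against 318, 319.8 and 302 CPM in Fadu (log2 fold change 2.79, SE 0.033, adjusted p = 2.0e-35). All Cal27 libraries lay above all Fadu libraries. NID1, nidogen, averaged 0.135 ± 0.0604 CPM in Cal27 and 11.3 ± 0.535 CPM in Fadu. Integrins were even: 7 of 15 tested members (18 listed) were higher and 7 lower in Cal27, 5 and 4 of them past the 2-fold test (median log2 fold change -0.13, a sign not kept in every processing setting). ITGA5, the fibronectin receptor chain, averaged 308 ± 2.11 CPM in Cal27 and 44.9 ± 1.3 CPM in Fadu (log2 fold change 2.78), and ITGB6, of the TGF-beta-activating integrin, averaged 8.55 ± 0.771 CPM in Cal27 and 23.2 ± 0.534 CPM in Fadu (log2 fold change -1.44).

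Of the mesenchymal regulators and structural genes, 17 of 26 tested members (30 listed) were higher and 5 lower in Cal27, 15 and 4 of them past the 2-fold test (median log2 fold change 1.61, 0.27 to 1.85 over the processing settings). TNC, tenascin-C, a matrix protein of wounds and tumours, had 905, 905 and 1006 CPM in Cal27, against 6.5, 6.04 and 5.24 CPM in Fadu (log2 fold change 7.3, SE 0.058, adjusted p = 1.0e-32). SPARC, a matricellular protein, had 141, 141 and 146 CPM in Cal27, against 0.0565, 0.0505 and 0.123 CPM in Fadu (log2 fold change 10.83, SE 0.12). HMGA2, a chromatin protein, averaged 389 ± 16.7 CPM in Cal27 and 18.8 ± 0.543 CPM in Fadu. TWIST2, a transcription factor of mesenchyme, had 0 CPM in all 3 Cal27 libraries, against 9.91, 9.72 and 11.8 CPM in Fadu, at least 287-fold lower in Cal27. The list thus held large differences in both directions while vimentin was near 0 in both lines. For collagen chains, 11 of 24 tested members (29 listed) passed the 2-fold test as higher in Cal27 and 3 as lower (median log2 fold change 1.13, 0.03 to 1.6 over the processing settings). COL6A2 averaged 97.5 ± 3.82 CPM in Cal27 and 6.0 ± 0.483 CPM in Fadu, and COL7A1, the anchoring fibril collagen, averaged 86.2 ± 3.42 CPM in Cal27 and 269 ± 9.88 CPM in Fadu. Proteases split: for metalloproteinases and plasminogen activation, 7 of 25 tested members (27 listed) passed the 2-fold test as higher in Cal27 and 7 as lower (median log2 fold change -0.35, a sign not kept in every processing setting). ADAMTS1 averaged 402 ± 6.99 CPM in Cal27 and 1.49 ± 0.378 CPM in Fadu, PLAUR, the urokinase receptor, averaged 86.5 ± 2.16 CPM in Cal27 and 5.38 ± 0.929 CPM in Fadu, and MMP1, interstitial collagenase, averaged 1.29 ± 0.166 CPM in Cal27 and 36.0 ± 1.5 CPM in Fadu.

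**Figure D2:**
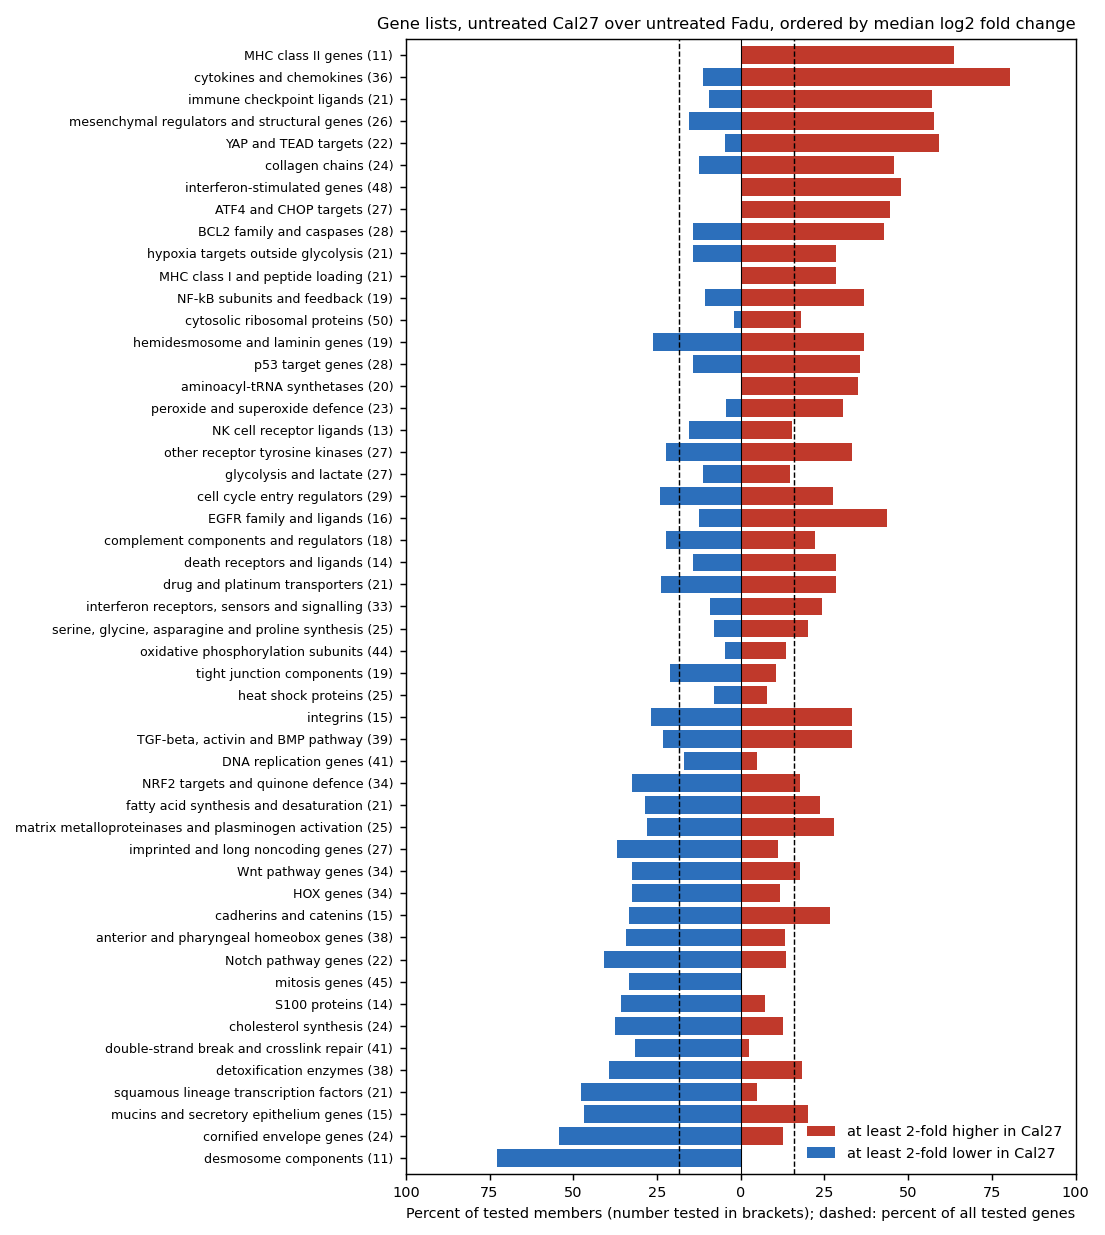
Percent of tested members of each gene list past the 2-fold test, higher in Cal27 in red and lower in blue. Dashed lines mark the shares over all tested genes (16.0% and 18.5%), and lists are ordered by median log2 fold change. Cytokines and chemokines (median 2.46, 1.16 to 2.46 over the processing settings) have 80.6% higher and 11.1% lower. The median of MHC class II genes (4.61, 0.73 to 6.04) depends on the setting. Lists with few tested members, regions and cell type markers are not drawn. Among those left out are basal keratins (3 tested, median -5.35, -5.72 to -5.26) and suprabasal keratins (8 tested, median -6.02, -6.45 to -0.19).

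EGFR, the receptor most studied in these tumours, was higher in Cal27 with 1978, 1959 and 2198 CPM in Cal27, against 892, 888 and 899 CPM in Fadu (log2 fold change 1.2, SE 0.033, adjusted p = 4.6e-22). HBEGF, an EGFR ligand, at 491 ± 2.51 CPM in Cal27 and 23.9 ± 2.1 CPM in Fadu, and NRG1, an ERBB3 and ERBB4 ligand, at 382 ± 5.34 CPM in Cal27 and 23.5 ± 1.88 CPM in Fadu, were also higher (log2 fold changes 4.35 and 4.02). ERBB3 averaged 30.7 ± 1.17 CPM in Cal27 and 70.2 ± 1.18 CPM in Fadu (log2 fold change -1.19). Over the family, 8 of 16 tested members (17 listed) were higher and 8 lower in Cal27, 7 and 2 of them past the 2-fold test (median log2 fold change 0.33, a sign not kept in every processing setting). Without Fadu library 2 or 3 that median also changed sign. Of other receptor tyrosine kinases, 9 of 27 tested members (31 listed) passed the 2-fold test as higher in Cal27 and 6 as lower (median log2 fold change 0.37, a sign not kept in every processing setting). AXL had 750.0, 729.8 and 776 CPM in Cal27, against 79.8, 80.4 and 75.5 CPM in Fadu (log2 fold change 3.26, SE 0.035, adjusted p = 1.3e-41), and no library of Fadu reached any of Cal27. FGFR3 went the other way at 2.76 ± 0.508 CPM in Cal27 and 122 ± 3.67 CPM in Fadu (log2 fold change -5.47).

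YAP and TEAD targets, which read out a pathway of cell shape and density, were mostly higher in Cal27: 18 of 22 tested members were higher and 3 lower in Cal27, 13 and 1 of them past the 2-fold test (median log2 fold change 1.35, 0.83 to 1.41 over the processing settings). AJUBA, a LIM protein that restrains Hippo kinases, had 354, 333 and 347 CPM in Cal27, against 1.55, 1.92 and 2.19 CPM in Fadu (log2 fold change 7.52, SE 0.064, adjusted p = 1.1e-44). NT5E, the CD73 ectoenzyme that makes adenosine, had 514, 503 and 519 CPM in Cal27, against 4.86, 5.23 and 4.32 CPM in Fadu (log2 fold change 6.73, SE 0.051, adjusted p = 2.8e-46). ANKRD1 averaged 23.1 ± 1.33 CPM in Cal27 and 0.0188 ± 0.0326 CPM in Fadu. Within the group the spread was wide: DOCK5 was the 1 member past the 2-fold test as lower, at 66.2 ± 3.29 CPM in Cal27 and 140.3 ± 4.42 CPM in Fadu. CD44, a hyaluronan receptor on the 11p13 stretch, averaged 2014 ± 25.7 CPM in Cal27 and 181 ± 0.702 CPM in Fadu (log2 fold change 3.48).

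The TGF-beta, activin and BMP pathway held large differences in ligands, an antagonist and a mediator. INHBA, the subunit of activin A, had 876, 853 and 908 CPM in Cal27, against 0.847, 0.631 and 1.14 CPM in Fadu (log2 fold change 10.00, SE 0.066, adjusted p = 4.9e-44). FST, its antagonist follistatin, was also higher, at 737 ± 10.8 CPM in Cal27 and 47.6 ± 0.87 CPM in Fadu (log2 fold change 3.95). SMAD4, the shared mediator of all branches, had 14.2, 14.9 and 13.9 CPM in Cal27, against 0 CPM in all 3 Fadu libraries, at least 513-fold higher in Cal27. BMP7 had 0 CPM in all 3 Cal27 libraries, against 25.2, 20.7 and 20.7 CPM in Fadu, at least 607-fold lower in Cal27. ID1, a BMP target, averaged 23.1 ± 1.99 CPM in Cal27 and 351 ± 4.72 CPM in Fadu. Over the pathway, 13 of 39 tested members (42 listed) passed the 2-fold test as higher in Cal27 and 9 as lower (median log2 fold change -0.15, -0.31 to -0.0 over the processing settings). Of Wnt genes, 6 of 34 tested members (41 listed) passed the 2-fold test as higher in Cal27 (17.6%, near the background of 16.0%) and 11 as lower (32.4%). Their median log2 fold change was -0.41, and -0.98 to -0.2 over the processing settings, so in some setting it was too small to be read as a direction. FZD10, a receptor, was at 0 in Cal27 against 13.4, 12.4 and 12.6 CPM in Fadu, and DKK1, an inhibitor, averaged 297 ± 5.87 CPM in Cal27 and 77.5 ± 2.61 CPM in Fadu. For Notch genes, 3 of 22 tested members (25 listed) passed the 2-fold test as higher in Cal27 and 9 as lower (median log2 fold change -0.56, -1.54 to -0.53 over the processing settings). NOTCH3 averaged 34.2 ± 2.14 CPM in Cal27 and 158 ± 4.39 CPM in Fadu (log2 fold change -2.2), while MAML2, a coactivator, averaged 24.9 ± 1.78 CPM in Cal27 and 3.0 ± 0.265 CPM in Fadu (log2 fold change 3.05).

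Positional genes differed in both directions. For HOX genes, 10 of 34 tested members (39 listed) were higher and 18 lower in Cal27, 4 and 11 of them past the 2-fold test (median log2 fold change -0.48, -0.83 to -0.32 over the processing settings). HOXB9, a posterior member, averaged 47.7 ± 0.989 CPM in Cal27 and 8.87 ± 1.3 CPM in Fadu, whereas HOXB3, an anterior member, averaged 3.71 ± 0.165 CPM in Cal27 and 21.8 ± 1.15 CPM in Fadu. For anterior and pharyngeal homeobox genes, 5 of 38 tested members (43 listed) passed the 2-fold test as higher in Cal27 and 13 as lower (median log2 fold change -0.53, -1.13 to -0.41 over the processing settings). EYA4 averaged 20.3 ± 0.227 CPM in Cal27 and 0.392 ± 0.26 CPM in Fadu.

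Secreted inflammatory signals were higher in Cal27 in most members. Of cytokines and chemokines, 31 of 36 tested members (46 listed) were higher and 5 lower in Cal27, 29 and 4 of them past the 2-fold test (median log2 fold change 2.46, 1.16 to 2.46 over the processing settings). IL6 had 196, 197 and 184 CPM in Cal27, against 1.75, 2.2 and 1.36 CPM in Fadu (log2 fold change 6.74, SE 0.077, adjusted p = 1.7e-38). CSF2, the granulocyte-macrophage colony-stimulating factor, had 67.0, 67.9 and 61.9 CPM in Cal27, against 0, 0.202 and 0.154 CPM in Fadu (log2 fold change 9.04, SE 0.17, adjusted p = 1.5e-29). CCL2, a monocyte chemokine, had 5.76, 6.31 and 4.95 CPM in Cal27, against 0 CPM in all 3 Fadu libraries, at least 203-fold higher. Not every member went this way: IL1RN, the interleukin-1 receptor antagonist, averaged 2.76 ± 0.969 CPM in Cal27 and 27.1 ± 3.13 CPM in Fadu (log2 fold change -3.3). For NF-kB subunits and feedback genes, 7 of 19 tested members passed the 2-fold test as higher in Cal27 and 2 as lower (median log2 fold change 0.69, 0.3 to 0.75 over the processing settings). NFKB2 averaged 393 ± 16.8 CPM in Cal27 and 60.2 ± 3.4 CPM in Fadu (log2 fold change 2.7) and REL averaged 7.83 ± 1.57 CPM in Cal27 and 38.2 ± 2.49 CPM in Fadu (log2 fold change -2.29). Complement genes stood close to the background by the 2-fold test. Of 18 tested members, 4 (22.2%) passed it as higher in Cal27 and 4 (22.2%) as lower. Their median log2 fold change was 0.26, a sign not kept in every processing setting. C3 averaged 719.5 ± 13.3 CPM in Cal27 and 164 ± 1.53 CPM in Fadu (log2 fold change 2.13).

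**Figure D3:**
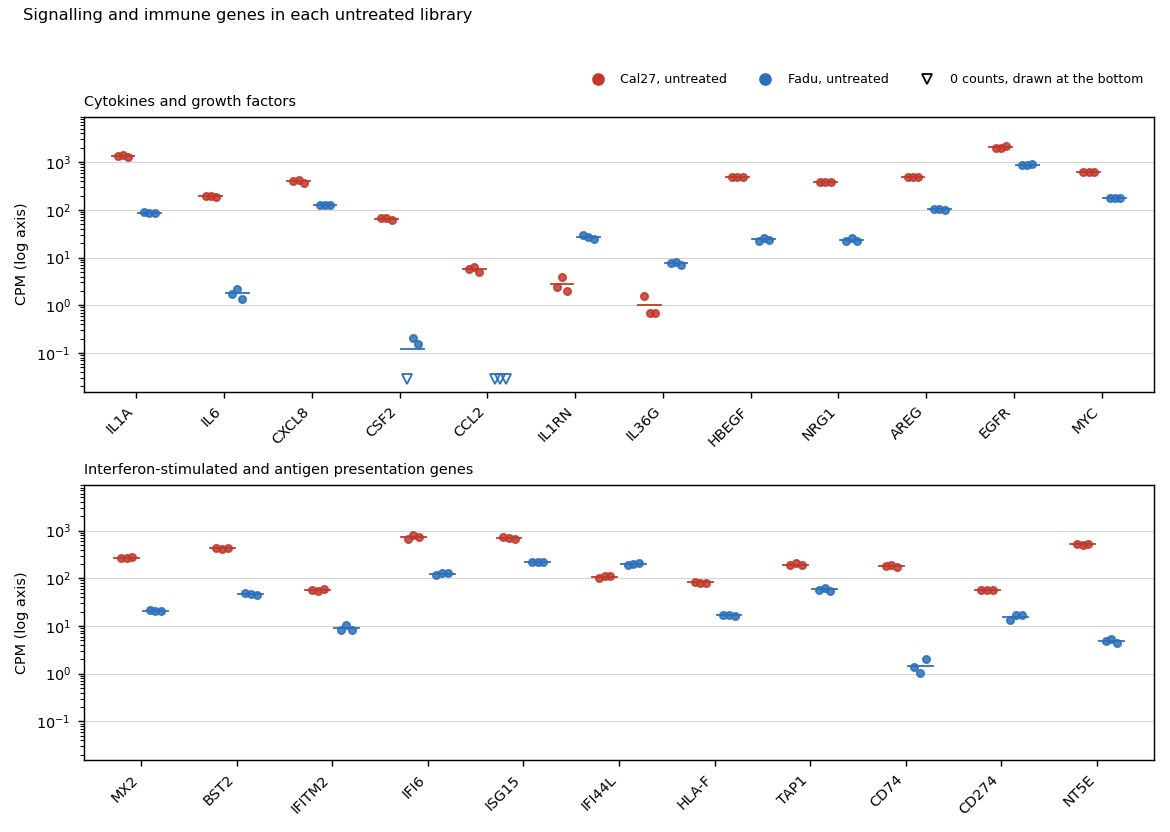
Growth factor, cytokine and immune genes in each untreated library, as CPM on a log axis, Cal27 in red and Fadu in blue, with open triangles for 0 counts. IL6 lies at 184 to 197 CPM in Cal27 and at 1.36 to 2.2 CPM in Fadu.

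Interferon-stimulated genes were expressed in both lines and higher in Cal27. Of 48 tested, 38 were higher and 8 lower, 23 and 0 past the 2-fold test (median 0.98, 0.57 to 1.01 over the processing settings). MX2, an antiviral GTPase, had 263, 265 and 275 CPM in Cal27, against 21.5, 20.5 and 21.1 CPM in Fadu (log2 fold change 3.67, SE 0.044, adjusted p = 4.5e-40). BST2, the virion-retaining tetherin, had 439.6, 408 and 424 CPM in Cal27, against 49.8, 47.1 and 45.7 CPM in Fadu (log2 fold change 3.16, SE 0.04, adjusted p = 1.8e-39). The largest shift downward was IFI44L at 108 ± 4.8 CPM in Cal27 and 199 ± 9.11 CPM in Fadu (log2 fold change -0.88), short of the 2-fold test. Receptors, sensors and signalling genes were divided: 8 of 33 tested members passed the 2-fold test as higher in Cal27 and 3 as lower (median log2 fold change 0.18, a sign not kept in every processing setting).

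Most tested genes of MHC class I and II presentation were higher in Cal27. Natural killer cell ligands past the 2-fold test stood near the background, at 15.4% higher and 15.4% lower. For MHC class I and peptide loading, 16 of 21 tested members (22 listed) were higher and 4 lower in Cal27, 6 and 0 of them past the 2-fold test (median log2 fold change 0.72, 0.33 to 0.75 over the processing settings). TAP1, the peptide transporter, averaged 195 ± 11.6 CPM in Cal27 and 58.5 ± 3.92 CPM in Fadu (log2 fold change 1.73). Of MHC class II genes, 10 of 11 tested members (13 listed) were higher and 0 lower in Cal27, 7 and 0 of them past the 2-fold test (median log2 fold change 4.61, 0.73 to 6.04 over the processing settings). CD74, the invariant chain, had 183, 186 and 175 CPM in Cal27, against 1.41, 1.01 and 2.0 CPM in Fadu (log2 fold change 6.97, SE 0.088, adjusted p = 2.5e-32), while the other tested members averaged under 5 CPM in either line. For immune checkpoint ligands, 12 of 21 tested members (24 listed) passed the 2-fold test as higher in Cal27 and 2 as lower (median log2 fold change 1.85, 0.47 to 2.27 over the processing settings). CD274, the gene of PD-L1, had 56.8, 56.2 and 58.1 CPM in Cal27, against 13.5, 17.0 and 16.7 CPM in Fadu (log2 fold change 1.85, SE 0.072, adjusted p = 4.7e-23). PDCD1LG2, of PD-L2, averaged 11.8 ± 0.491 CPM in Cal27 and 0.858 ± 0.0671 CPM in Fadu (log2 fold change 3.77). For ligands of natural killer cell receptors, 2 of 13 tested members (14 listed) passed the 2-fold test as higher in Cal27 and 2 as lower (median log2 fold change 0.39, 0.01 to 0.43 over the processing settings), with ICAM1 at 335 ± 9.5 CPM in Cal27 and 54.9 ± 0.946 CPM in Fadu.

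Most tested mitosis and repair genes were lower in Cal27. Cell cycle entry genes were divided: 8 of 29 tested members (30 listed) passed the 2-fold test as higher in Cal27 and 7 as lower (median log2 fold change 0.35, a sign not kept in every processing setting). MYC had 627, 620.3 and 631 CPM in Cal27, against 180.4, 177 and 179 CPM in Fadu (log2 fold change 1.81, SE 0.031, adjusted p = 2.7e-35), and CCND1, cyclin D1, averaged 459 ± 4.11 CPM in Cal27 and 519 ± 8.36 CPM in Fadu (log2 fold change -0.18). CDKN2A, the p16 gene, averaged 47.5 ± 1.03 CPM in Cal27 and 22.2 ± 2.28 CPM in Fadu. For DNA replication genes, 2 of 41 tested members passed the 2-fold test as higher in Cal27 and 7 as lower (median log2 fold change -0.19, -0.57 to -0.14 over the processing settings). For mitosis genes, 5 of 45 tested members were higher and 35 lower in Cal27, 0 and 15 of them past the 2-fold test (median log2 fold change -0.64, -1.01 to -0.61 over the processing settings). ASPM, a spindle pole protein, averaged 60.0 ± 0.917 CPM in Cal27 and 338 ± 6.72 CPM in Fadu (log2 fold change -2.5), and AURKA, at a log2 fold change of 0.28, stood at -0.1 with limma on TPM. For double-strand break and crosslink repair, 7 of 41 tested members were higher and 30 lower in Cal27, 1 and 13 of them past the 2-fold test (median log2 fold change -0.78). FANCD2, of the Fanconi pathway, averaged 24.5 ± 1.44 CPM in Cal27 and 149 ± 4.8 CPM in Fadu (log2 fold change -2.6), and ATM averaged 36.5 ± 2.41 CPM in Cal27 and 149 ± 5.53 CPM in Fadu (log2 fold change -2.03).

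Of p53 targets, 10 of 28 tested members passed the 2-fold test as higher in Cal27 and 4 as lower (median log2 fold change 0.52, 0.13 to 0.61 over the processing settings). Of BCL2 family and caspase genes, 12 of 28 tested members (30 listed) passed the 2-fold test as higher in Cal27 and 4 as lower (median log2 fold change 0.92, 0.32 to 1.01 over the processing settings). BCL2L1, which blocks apoptosis, averaged 205 ± 10.1 CPM in Cal27 and 40.3 ± 1.1 CPM in Fadu (log2 fold change 2.35), and BBC3, the pro-apoptotic PUMA, averaged 53.8 ± 2.89 CPM in Cal27 and 7.1 ± 0.488 CPM in Fadu (log2 fold change 2.92). Death receptors included complete contrasts: 4 of 14 tested members (16 listed) passed the 2-fold test as higher in Cal27 and 2 as lower (median log2 fold change 0.24, a sign not kept in every processing setting). TNFRSF10A, a TRAIL receptor, had 53, 57.0 and 57.9 CPM in Cal27, against 0 CPM in all 3 Fadu libraries, at least 2005-fold higher in Cal27. TNFRSF10D, a decoy receptor beside it on chromosome 8, had 13.8, 13.8 and 15.2 CPM in Cal27, against 0 CPM in all 3 Fadu libraries, at least 511-fold higher.

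Redox and detoxification genes differed in both directions. Of NRF2 targets and quinone defence, 6 of 34 tested members (17.6%, near the background of 16.0%) passed the 2-fold test as higher in Cal27 and 11 (32.4%) as lower. Their median log2 fold change was -0.25 (-0.67 to -0.21 over the processing settings), too small to be read as a direction. NQO1, the quinone reductase, had 102, 101 and 105 CPM in Cal27, against 491, 488 and 502 CPM in Fadu (log2 fold change -2.26, SE 0.034, adjusted p = 4.7e-37), and SRXN1, sulfiredoxin, averaged 20.1 ± 1.01 CPM in Cal27 and 2.88 ± 0.0438 CPM in Fadu. SLC7A11, the cystine transporter, averaged 304 ± 4.78 CPM in Cal27 and 230.2 ± 4.85 CPM in Fadu (log2 fold change 0.4). For peroxide and superoxide defence, 7 of 23 tested members (27 listed) passed the 2-fold test as higher in Cal27 and 1 as lower (median log2 fold change 0.47, 0.08 to 0.61 over the processing settings). CAT, catalase, averaged 183 ± 2.74 CPM in Cal27 and 46.8 ± 1.77 CPM in Fadu (log2 fold change 1.97). For detoxification enzymes, 7 of 38 tested members (40 listed) passed the 2-fold test as higher in Cal27 and 15 as lower (median log2 fold change -0.93, -1.2 to -0.44 over the processing settings). ALDH3A1 averaged 0.345 ± 0.177 CPM in Cal27 and 118 ± 3.15 CPM in Fadu and ALDH7A1 averaged 66.8 ± 3.62 CPM in Cal27 and 0.244 ± 0.0403 CPM in Fadu. Of metallothioneins, which bind zinc and copper, 5 of 10 listed were tested and all 5 were past the 2-fold test as higher (median 2.67). MT2A had 1358, 1505 and 1698 CPM in Cal27, against 234, 229 and 253 CPM in Fadu (log2 fold change 2.67, SE 0.11, adjusted p = 1.5e-05). For drug and platinum transporters, 6 of 21 tested members (22 listed) passed the 2-fold test as higher in Cal27 and 5 as lower (median log2 fold change 0.19, a sign not kept in every processing setting).

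Most tested ATF4 and CHOP targets, genes of amino acid stress, were higher in Cal27, while amino acid synthesis genes showed no steady direction. For ATF4 and CHOP targets, 23 of 27 tested members were higher and 4 lower in Cal27, 12 and 0 of them past the 2-fold test (median log2 fold change 0.94, 0.56 to 1.0 over the processing settings). PPP1R15A, which reverses translation arrest, averaged 755 ± 6.98 CPM in Cal27 and 55.3 ± 1.17 CPM in Fadu (log2 fold change 3.77), and TRIB3 averaged 659.8 ± 27.2 CPM in Cal27 and 98.8 ± 1.16 CPM in Fadu, while ATF4 itself averaged 634 ± 21.5 CPM in Cal27 and 751 ± 17.1 CPM in Fadu. For aminoacyl-tRNA synthetases, 7 of 20 tested members passed the 2-fold test as higher in Cal27 and 0 as lower (median log2 fold change 0.51, 0.13 to 0.56 over the processing settings). For serine, glycine, asparagine and proline synthesis, 5 of 25 tested members (26 listed) passed the 2-fold test as higher in Cal27 and 2 as lower (median log2 fold change 0.11, a sign not kept in every processing setting), with ASNS, which makes asparagine, at 7.25 ± 0.998 CPM in Cal27 and 28.5 ± 0.913 CPM in Fadu. Lipid synthesis genes differed in both directions. For cholesterol synthesis, 3 of 24 tested members passed the 2-fold test as higher in Cal27 and 9 as lower (median log2 fold change -0.76). Fatty acid synthesis was divided: 10 of 21 tested members (22 listed) were higher and 11 lower in Cal27, 5 and 6 of them past the 2-fold test (median log2 fold change -0.33, a sign not kept in every processing setting). SCD, the stearoyl desaturase, averaged 123 ± 4.41 CPM in Cal27 and 995 ± 14.7 CPM in Fadu (log2 fold change -3.02). For glycolysis, 4 of 27 tested members passed the 2-fold test as higher in Cal27 and 3 as lower (median log2 fold change 0.36, a sign not kept in every processing setting). For hypoxia targets, 6 of 21 tested members passed the 2-fold test as higher in Cal27 and 3 as lower (median log2 fold change 0.78, 0.11 to 0.93 over the processing settings), with CA9 at 26 ± 3.13 CPM in Cal27 and 2.66 ± 0.269 CPM in Fadu. For oxidative phosphorylation, 6 of 44 tested members passed the 2-fold test as higher in Cal27 and 2 as lower (median log2 fold change 0.05, a sign not kept in every processing setting). For cytosolic ribosomal proteins, 9 of 50 tested members passed the 2-fold test as higher in Cal27 and 1 as lower (median log2 fold change 0.63, 0.25 to 0.67 over the processing settings), and for heat shock proteins, 2 of 25 tested members passed the 2-fold test as higher in Cal27 and 2 as lower (median log2 fold change -0.13, -0.5 to -0.1 over the processing settings).

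Some genes of restricted expression marked 1 line. For cancer-testis antigens, 4 of 7 tested members (40 listed) passed the 2-fold test as higher in Cal27 and 2 as lower (median log2 fold change 3.97, a sign not kept in every processing setting). MAGEA3 had 145, 136 and 142 CPM in Cal27, against 0 CPM in all 3 Fadu libraries and MAGEA6 had 129, 142 and 129 CPM in Cal27, against 0 CPM in all 3 Fadu libraries, but the 2 genes are near-identical copies whose reads the counting could divide either way. PRAME averaged 10.8 ± 2.45 CPM in Cal27 and 31.2 ± 1.16 CPM in Fadu (log2 fold change -1.53). For imprinted and long noncoding genes, 3 of 27 tested members (35 listed) passed the 2-fold test as higher in Cal27 and 10 as lower (median log2 fold change -0.4, -0.78 to -0.27 over the processing settings). PEG10 had 0 CPM in all 3 Cal27 libraries, against 119.8, 125 and 127 CPM in Fadu, at least 3394-fold lower in Cal27. H19 had 0 CPM in all 3 Cal27 libraries, against 23.9, 22.5 and 27.1 CPM in Fadu, at least 671-fold lower.

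Neighbouring genes differed in the same direction in several places. Positions are on GRCh38, from GENCODE 29. Windows of 20 neighbouring tested genes had medians from -1.15 to 0.97 between the 5th and 95th percentiles (899 windows). The highest window, chr11:33256672-35620868, had a median of 2.33 with 19 of 20 genes above 0 and 14 past the 2-fold test, and held EHF and CD44. The neighbours ABTB2 and FJX1, chosen after their values were seen, were also higher. ABTB2 averaged 209.8 ± 2.9 CPM in Cal27 and 13.9 ± 0.674 CPM in Fadu. FJX1 averaged 609.6 ± 20.9 CPM in Cal27 and 17.0 ± 1.32 CPM in Fadu. The 11q13 region went the other way. Of its genes, 3 of 19 tested members were higher and 15 lower in Cal27, 1 and 12 of them past the 2-fold test (median log2 fold change -1.82). SHANK2, a scaffold protein, averaged 3.44 ± 0.814 CPM in Cal27 and 198 ± 8.2 CPM in Fadu, and ANO1, a chloride channel, averaged 1.43 ± 0.611 CPM in Cal27 and 58.4 ± 2.26 CPM in Fadu. CCND1 in the same stretch was close between lines. For the 3q26 to 3q29 region, 1 of 24 tested members (25 listed) passed the 2-fold test as higher in Cal27 and 9 as lower (median log2 fold change -0.96), with ATP11B at 42.9 ± 1.54 CPM in Cal27 and 160.2 ± 1.31 CPM in Fadu. For 18q21, 13 of 23 tested members (28 listed) passed the 2-fold test as higher in Cal27 and 1 as lower (median log2 fold change 1.3, 0.59 to 1.41 over the processing settings). There ME2, ELAC1, SMAD4 and MEX3C, a run of neighbours chosen after their values were seen, held 0 or 1 counts in Fadu. For 7p11, 5 of 12 tested members (14 listed) passed the 2-fold test as higher in Cal27 and 0 as lower (median log2 fold change 1.0, 0.55 to 1.04 over the processing settings). For 9p21, 3 of 12 tested members (13 listed) passed the 2-fold test as higher in Cal27 and 1 as lower (median log2 fold change 0.77, 0.23 to 0.81 over the processing settings), and for 11q22, 3 of 15 tested members (19 listed) passed the 2-fold test as higher in Cal27 and 6 as lower (median log2 fold change -0.56, -1.05 to -0.41 over the processing settings). A count of RNA does not say whether a gene is deleted or silent, and copy number was not measured.

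**Figure D4:**
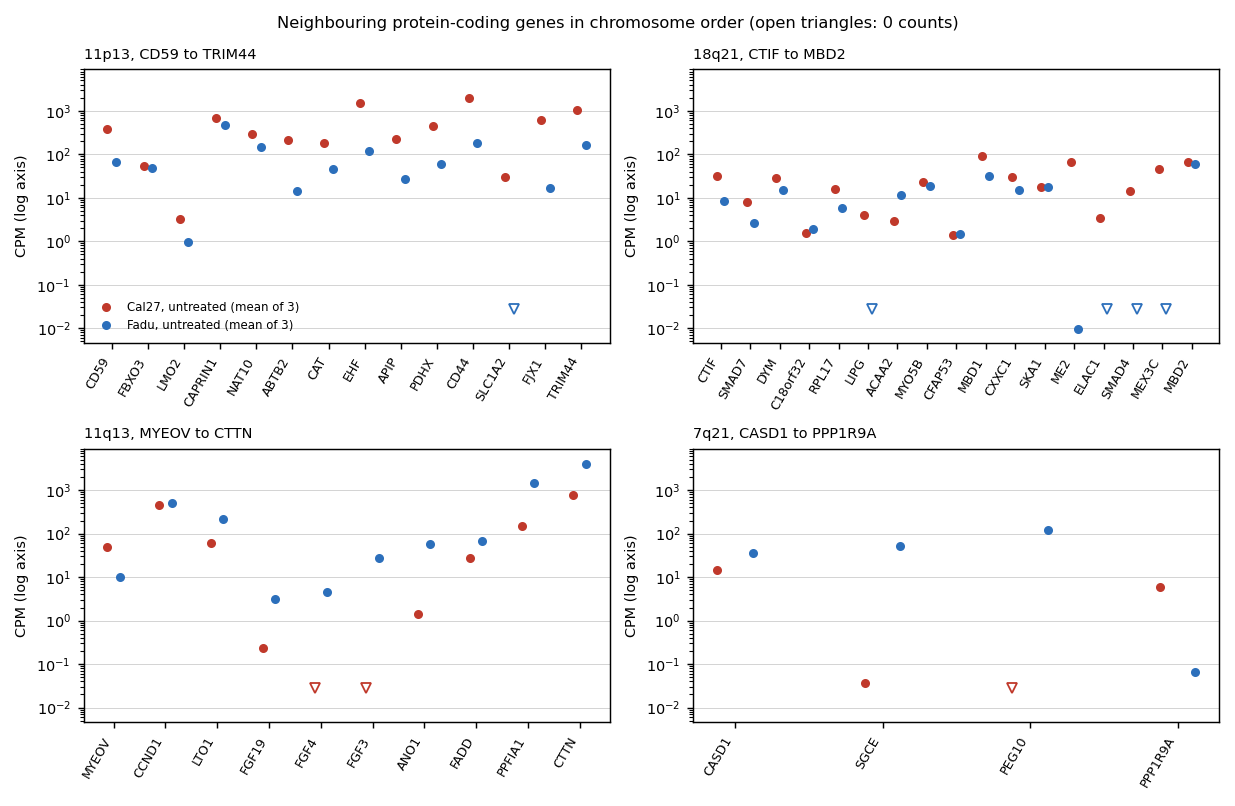
Mean CPM of neighbouring protein-coding genes in chromosome order in 4 stretches, Cal27 in red and Fadu in blue, with open triangles for 0 counts. SMAD4 and its neighbours ME2, ELAC1 and MEX3C sit at the bottom in Fadu.

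The lowest windows lay on chromosome 19. chr19:36445119-37369365 had a median of -9.48, or -6.27 with genes at 0 in 1 line at their bound, with 18 of 20 genes past the 2-fold test as lower. In it 17 genes had at most 3 counts over the Cal27 libraries, and 0 genes had so few in Fadu. The lowest window off chromosome 19 was chr11:69048897-71252577, at 11q13, with a median of -3.16. Medians over whole chromosomes ranged from -0.68 for chromosome 14 to 0.46 for chromosome 19.

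**Figure D5:**
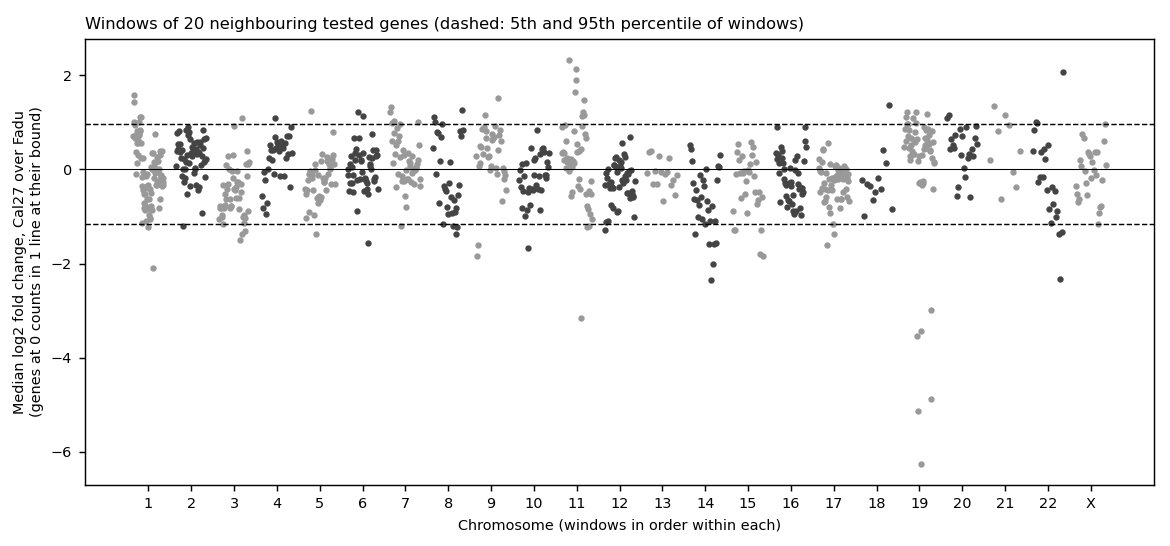
Median log2 fold change, Cal27 over Fadu, of each window of 20 neighbouring tested genes along the chromosomes, with genes at 0 counts in 1 line at their bound. The chromosome 19 windows near -6.27 and -5.14 lie farthest below 0, and the 11p13 window at 2.33 lies highest.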

How the data were processed

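The 6 untreated libraries, 3 of Cal27 and 3 of Fadu, come from total RNA extracted with Trizol and a SMARTER mRNA-Seq kit, per the labels' protocols. Per line, the authors deposited raw gene counts and, separately, TPM, over 61533 genes. HISAT2 and GRCh38 are named by the submitters' processing notes. Its version, the counter, the annotation, strand use and TPM lengths are not given in the sources, so antisense and overlapping genes are uncertain. The 37 mitochondrial genes were listed at 0 throughout.

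The count test used edgeR 4.0.16 (R 4.3.3): filterByExpr (minimum count 10, minimum total 15), TMM, the quasi-likelihood test with robust dispersion and Benjamini-Hochberg adjustment over all 18603 tested genes (threshold 0.05), and glmTreat against a 2-fold null. Libraries of 1 line differed by more than counting error. Total counts are given with the results, and intervals and floors (3 counts) cover counting error only. Symbols came from a symbol table and positions from GENCODE 29.

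The members, 69 gene lists and tests were chosen with earlier results of these data known. Of 1732 symbols 1729 were found and 1493 tested. Genes named were the 12 largest 2-fold calls per direction with at least 50 CPM in the higher line and no overlap of libraries. Also named were up to 3 per list and direction with at least 5 CPM, and a panel of 18. Not all of them are reported here. Others are said to be chosen after their values were seen. Alternatives were RLE factors, library size only, DESeq2 1.42.0, other low-count filters, no robust dispersion, a fit of 12 untreated libraries of 4 lines, a replicate block, limma 3.58.1 on log2(TPM + 1) and log2(TPM + 0.1), and each library left out. The statistics were run on simulated data with 200 changed genes. Far more genes were called here, so that run does not test the calls or the scaling in these data.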

Additional observations from a re-analysis of the deposited data

How the results depend on the processing

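Most counts kept within 1.5 times of 7371 genes higher and 7632 lower in Cal27: 7265 and 7750 with RLE factors, 7080 and 7494 with DESeq2, 8007 and 8899 without a low-count filter, and 6502 and 6623 with a CPM minimum of 1. With 1 library left out they ranged from 7294 to 7417 and from 7463 to 7876. The 2-fold test called 2979 and 3433, and 3010 to 3066 and 3368 to 3685 with 1 library left out. Limma on TPM changed more. It called 4527 genes higher and 8992 lower with log2(TPM + 1), and 4488 and 8804 with log2(TPM + 0.1). Of 12600 calls tested there too, 1083 had a log2 difference of the other sign with either pseudocount, and of 15003 without a filter 1106 did. It put 1172, 1048 (no filter) and 1405 (TPM + 0.1) genes past 2-fold as higher. Of 69 lists 37 had a positive median, against 24 with limma without a filter. The medians of 50 lists came more than 1.5 times nearer to 0 or changed sign in some setting. That was so for 46 lists with limma without a filter and for 44 in another setting. The genes tested differ between settings: 36166 with limma without a filter, against 18603 in the main fit. Windows with a median beyond 1 in size numbered 106, against 46 with limma without a filter. PKP3 changed sign with limma on TPM (-0.1992, -0.1992 without a filter, -0.1999 with a pseudocount of 0.1), as did AURKA (-0.0966, -0.0966 and -0.098), and the cause was not tested. Libraries of the same replicate number shared no visible deviation from their line's mean. Their correlations were 0.0055, -0.0011 and -0.0043, against -0.0106 to 0.0113 for libraries of different numbers. This does not show whether same-number libraries were handled together. With the replicate numbers as a block, 7230 genes were higher and 7459 lower, with 2928 and 3350 past the 2-fold test. Depth limits a gene at 0 to a level below 3 counts over a line's libraries.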

Other observations

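Genes of the zinc finger family on chromosome 19 were often near 0 in Cal27. These are the protein-coding genes whose symbol is ZNF and digits, a group chosen after the values were seen, and many are repressors of repeated DNA, as background. Of 247 such genes on chromosome 19, 194 were tested, and 14 passed the 2-fold test as higher in Cal27 and 70 as lower, or 36.1% lower (median log2 fold change -0.42). At most 3 counts over the line's 3 libraries were found for 104 of them in Cal27 and 43 in Fadu, and for 19 in the untreated Hth83 and 2 in the untreated A375 libraries of the series. Of the genes at that floor in Cal27, 51 had at least 1 CPM in Fadu, and 0 showed the reverse. On other chromosomes 262 such genes had 231 tested, with 20 past the 2-fold test as higher and 49 as lower (21.2% lower, median -0.13), and 36 at the floor in Cal27 and 25 in Fadu. The other 964 tested genes of chromosome 19 had 247 past the 2-fold test as higher and 100 as lower, with a median of 0.58. ZNF736 on chromosome 7 had 0 CPM in all 3 Cal27 libraries, against 55.1, 55.9 and 57.8 CPM in Fadu.

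Runs of at least 3 neighbouring genes at the floor in 1 line, each with at least 1 CPM in the other line, numbered 15 in Cal27 with 82 genes and 4 in Fadu with 18 genes. The longest in Cal27 was chr19:36313067-37172741, 17 genes with 1 count in all. The longest in Fadu held 7 genes of the X chromosome, among them UBQLN2 and RRAGB. The cause of these runs was not tested.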
